A study of Mus musculus with 2 samples.

Results

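The genes described here are those of the NF-kappaB subunits Nfkb1, Nfkb2, Rel, Rela and Relb and of 5 proteins that restrain or modulate them, Nfkbia, Nfkbie, Nfkbiz, Tnfaip3 and Bcl3. They were chosen by name, as 10 of 22350 protein-coding genes of GENCODE release M1. All DNase I hypersensitive sites (DHS) that overlapped a gene body or the 50 kb on either side of it were collected, which gave 117 of the 47474 DHS on chromosomes 1 to 19 and X. No DHS fell into the windows of more than 1 of these genes.

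DHS are stretches of chromatin that DNase I cuts readily. They were mapped in B cells of 8 weeks old C57/Bl6 mice of the genotype Trp53+/+ after mock treatment, which were taken from the spleen with magnetic beads against the surface protein B220. The series holds 1 DNaseI library and 1 input library, without replicates, and the peak list of the DNaseI library was analysed here. The list gives each DHS a position on mm9 and a score of unstated scale, from 5.05 to 619.4 with a median of 32.65, and the score served to rank DHS within this list. It holds no read counts, so the depth is unknown and a missing DHS means that none was called. With 1 library every comparison below is a description, and the 95% intervals given cover counting error alone.

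The labelled cell type was checked at marker genes. The B cell markers Cd79a, Cd79b, Ms4a1, Cd22 and Pax5 each had a promoter DHS, with top scores from 83.97 to 265.3. Of 6 T cell markers, Cd5 alone had one, with a score of 97.67, and a subset of B cells carries Cd5 as well. The myeloid list had 2 of 6, Itgam at 18.16 and Elane at 42.54, and of the erythroid markers Klf1 had one at 177.8 while Hbb-b1 and Alas2 had none. The part of such cells in the results below was not tested.

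NF-kappaB factors are dimers of proteins that share the Rel homology domain. In resting cells they are largely held in the cytoplasm by inhibitors of the IkappaB family, which are degraded when the B cell receptor, Toll-like receptors or CD40 signal through the IkappaB kinases. The freed dimers bind kappaB elements in DNA, and genes of the pathway's own inhibitors are among their best known targets. Splenic B cells depend on the pathway for survival, and the BAFF receptor and CD40 also feed a second branch that ends in Relb and the processed product of Nfkb2.

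The sequences in which DHS of these genes matched the kappaB consensus, the element that NF-kappaB binds, are shown first. The kappaB consensus was read as 10 bases, namely 3 G, a purine, any base, A or T, a pair of pyrimidines and 2 C, on both strands. The stretches below are mm9 sequence on the strand of the gene, 5′ to 3′, and capitals mark the matches. For Nfkbia (chr12:56593635-56593934), Nfkb2 (chr19:46379167-46379226), Rel (chr11:23670971-23671090) and Relb (chr7:20214788-20214907) they end at the base before the 5′-most transcription start site (TSS). The Nfkbia, Rel and Relb stretches are from the minus strand and that of Nfkb2 from the plus strand.
Nfkbia: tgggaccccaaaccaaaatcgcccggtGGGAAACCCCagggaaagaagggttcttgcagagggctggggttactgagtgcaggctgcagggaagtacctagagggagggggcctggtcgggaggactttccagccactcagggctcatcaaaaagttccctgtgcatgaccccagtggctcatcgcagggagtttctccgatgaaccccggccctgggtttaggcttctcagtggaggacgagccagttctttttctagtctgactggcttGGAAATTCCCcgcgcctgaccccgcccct
Nfkb2: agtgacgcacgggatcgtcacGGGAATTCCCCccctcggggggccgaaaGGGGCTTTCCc
Rel: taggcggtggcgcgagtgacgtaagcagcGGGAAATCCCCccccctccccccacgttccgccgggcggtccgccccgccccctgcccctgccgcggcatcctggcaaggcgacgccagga
Relb: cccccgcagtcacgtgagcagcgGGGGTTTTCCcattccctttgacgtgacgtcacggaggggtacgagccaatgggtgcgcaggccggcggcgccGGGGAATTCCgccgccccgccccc

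The run of capitals in Rel and the first run in Nfkb2 are each 2 overlapping matches. Further matches lay inside the genes. Of the 6 in the promoter DHS of Nfkbie, 4 are shown, in 2 stretches of intron sequence at chr17:45693558-45693645 and chr17:45694990-45695092 on the plus strand.
Nfkbie first stretch: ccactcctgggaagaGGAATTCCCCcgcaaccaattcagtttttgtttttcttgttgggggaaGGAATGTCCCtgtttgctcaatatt
Nfkbie second stretch: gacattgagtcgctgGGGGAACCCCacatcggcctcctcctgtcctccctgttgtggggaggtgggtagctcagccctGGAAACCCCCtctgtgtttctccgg

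The other genes are shown by 1 match each with the 10 bases on both sides, on the strand that reads as the consensus. The match of Nfkbiz lay in exon sequence (chr16:55838963-55838992, minus strand), and those of Rela (chr19:5637888-5637917, minus strand), Bcl3 (chr7:20402969-20402998, plus strand) and Nfkb1 (chr3:135353964-135353993, plus strand) in introns. No match was found in the promoter DHS of Tnfaip3.
Nfkbiz: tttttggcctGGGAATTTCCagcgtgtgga
Rela: gcggggagggGGGAGATTCCgccgcaggcc
Bcl3: tgtgcgggaaGGGATTTCCCcgaggcggca
Nfkb1: actcctgcttGGGGCTCTCCcctagtcccc

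Accessibility at the promoters was examined first. A promoter DHS was one that reached into the 5 kb before a TSS of the gene or the 2 kb after it. All 10 genes had such a DHS (100%, exact binomial interval 69.15 to 100), compared with 57% of all protein-coding genes. All 10 also had one at or above the median score of the list. This was so for 50.3% of all genes, which were 11231 of the 12747 with a promoter DHS. With the 5′-most TSS of each gene as the single start site the share was again 100%, against 54.62% of all genes. The scores were spread widely, from 73.8 at Nfkb1 to 418.2 at Rel with a median of 214.4. The median over the 12747 genes with a promoter DHS was 101.2. The top promoter DHS of 7 genes belonged to the tenth of the list with the highest scores, where 19.9% of all genes have a promoter DHS. The other three were Nfkb1, Nfkbie and Bcl3.

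**Figure D1:**
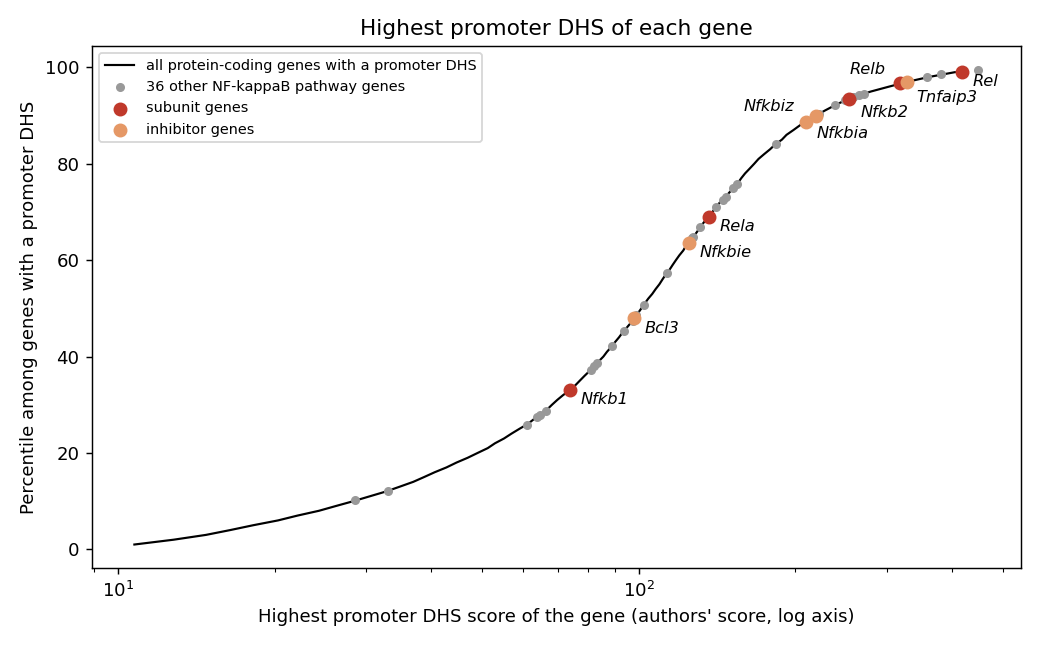
The horizontal axis gives the score of the highest promoter DHS of a gene on a log axis, and the vertical axis its percentile among the 12747 protein-coding genes with a promoter DHS. The line is the distribution over those genes, red points are subunit genes, orange points inhibitor genes and grey points 36 other genes of the pathway. Rel, Tnfaip3 and Relb lie at percentiles 99.1, 97.0 and 96.7, and Bcl3 and Nfkb1 at 47.9 and 33.1.

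Among the subunits, Rel (ENSMUSG00000020275.8, chr11:23641514-23670970), which encodes c-Rel, the subunit characteristic of lymphocytes, had 1 promoter DHS at chr11:23669752-23672386 with a score of 418.2. This was above 99.1% of the genes with a promoter DHS. The 8 distal DHS of its window, distal meaning outside the promoter stretch of every annotated gene, scored 23.31 or less, among them one in an intron of Rel with 16.55. Relb (ENSMUSG00000002983.9, chr7:20191566-20214787), the partner of p52 in the second branch, had 1 promoter DHS at chr7:20213452-20215596 with 317.5. It spanned all 5 annotated start sites of the gene. The 2 other DHS over the Relb gene body were distal, with 59.25 at chr7:20204475-20205205 and 13.07 at chr7:20200305-20200674. The window of Rel thus had a single high peak at the promoter, while that of Relb held others at neighbouring genes.

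Nfkb2 (ENSMUSG00000025225.7, chr19:46379227-46386580), the gene of p100 and p52, had 1 promoter DHS at chr19:46378311-46380932 with a score of 253.9, and it covered all 3 start sites. A second DHS over its exons, chr19:46382797-46384489, scored 77.27 and was the highest distal one of the window. Rela (ENSMUSG00000024927.6, chr19:5637483-5648130), which encodes p65, the main activating subunit in many cell types, had 1 promoter DHS at chr19:5636422-5638336 with 136.2, above 69.0% of genes with one. Nfkb2, Rel, Rela and Relb therefore each had 1 wide promoter DHS, of 1915 to 2635 bp, that covered the 5′-most TSS.

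Nfkb1 (ENSMUSG00000028163.8, chr3:135247619-135354511), the gene of p105 and p50, differed from the other subunits in layout. It had 6 promoter DHS, and the highest, with 73.8, lay at chr3:135270923-135272017 over internal start sites, among them that of the coding transcript Nfkb1-005, 83277 bp downstream of the 5′-most TSS. Near the 5′ end, chr3:135353106-135354090 scored 67.45 and chr3:135354603-135355331 scored 49.78. None of these reached the intronic DHS at chr3:135290530-135293060, which was 2531 bp wide with a score of 158.7 and centred 62.7 kb downstream of the 5′-most TSS. Of the 10 genes, Nfkb1 alone had an intragenic distal DHS above every promoter DHS, which holds for 5.44% of genes with a promoter DHS. Nfkb1 is also the longest of the 10, at 106893 bp, and that share is not matched for gene length. Rela, Nfkbie, Tnfaip3 and Bcl3 had no distal DHS over the gene body. The intronic DHS of Nfkb1 with 158.7 held no kappaB match. A DHS further upstream of the gene scored 8.92. The remaining DHS over the gene body were 2 further ones at internal promoters (39.18 and 28.03) and 6 distal ones with scores from 6.45 to 33.32.

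Among the inhibitors, Nfkbia (ENSMUSG00000021025.7, chr12:56590398-56593634) encodes IkappaB-alpha, the classical feedback inhibitor. Its promoter DHS at chr12:56593156-56594321 scored 209.8 and was flanked by chr12:56592104-56592882, inside the gene, with 71.42 and by chr12:56595845-56596667, upstream, with 69.41. A distal DHS over its 3′ end scored 35.35. Nfkbie (ENSMUSG00000023947.7, chr17:45692665-45700118), the gene of IkappaB-epsilon, had its highest promoter DHS at chr17:45692602-45695866 with 124.7. At 3265 bp this was the widest promoter DHS of the 10 genes, and it ran from just upstream of the TSS far into the gene. Upstream of it lay chr17:45691734-45692507 with 67.7 and chr17:45688698-45689802 with 42.86, the latter also within the promoter stretch of Tmem151b. The 2 other DHS over Nfkbie scored 10.93 and 124.9, and both belong to the promoter stretch of the neighbouring Slc35b2.

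Tnfaip3 (ENSMUSG00000019850.5, chr10:18720716-18735463) encodes a ubiquitin-editing enzyme that ends signalling upstream of the kinases, and is no IkappaB protein. Its highest promoter DHS, chr10:18733987-18735217, scored 327.8 and covered 3 internal start sites, and a second one, chr10:18735347-18736088, scored 92.43 and covered the 5′-most TSS. A weaker one within the gene scored 8.84.

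Nfkbiz and Bcl3 encode nuclear IkappaB proteins, which act on transcription rather than holding NF-kappaB in the cytoplasm. In both the highest promoter DHS was internal. At Nfkbiz (ENSMUSG00000035356.9, chr16:55811488-55839012) the DHS at chr16:55820458-55823012 scored 218.9 and covered the start site of the coding transcript Nfkbiz-004, 16761 bp downstream of the 5′-most TSS. The DHS at the 5′ end, chr16:55837765-55839522, scored 127.2. Another 2 over the gene scored 60.95 and 17.93. At Bcl3 (ENSMUSG00000053175.9, chr7:20393811-20408119) the DHS at chr7:20400876-20403644 scored 97.93 and covered the start site of the non-coding transcript Bcl3-005, 6774 bp inside the gene. The same region overlaps Gm16174, so that the DHS cannot be assigned to Bcl3 alone. The 3 DHS around the 5′ end of Bcl3 scored 13.31, 16.16 and 13.38, the lowest 5′ promoter of the 10 genes at percentile 20.69 of all DHS, and a further intronic one scored 16.19.

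The subunit and the inhibitor genes overlapped in all these measures. The top promoter score ranged from 73.77 to 418.2 in the subunits (median 253.9) and from 97.93 to 327.8 in the inhibitors (median 209.8). The number of promoter DHS per gene was 1 in each subunit gene except Nfkb1, and from 3 to 5 in the inhibitors. At least 4 promoter DHS were found at Nfkb1 and Bcl3, as at 8.5% of genes with a promoter DHS.

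**Figure D2:**
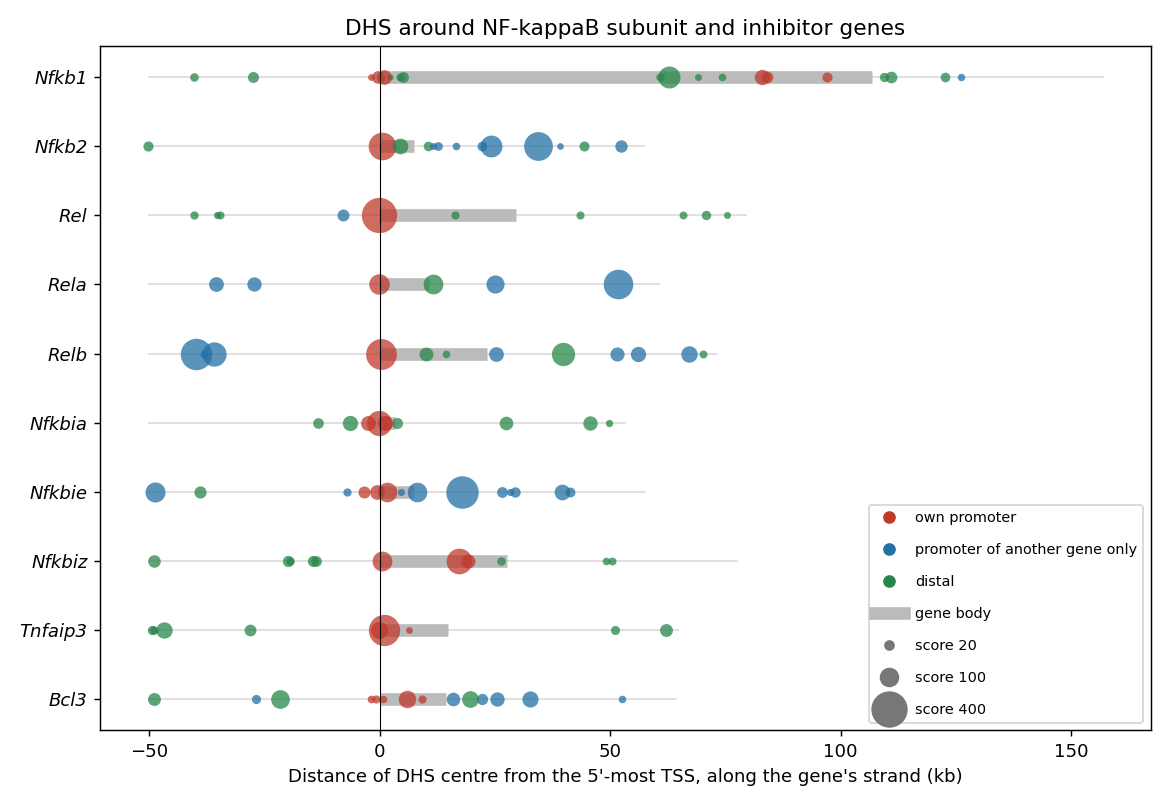
Each row is a gene drawn along its own strand, and the horizontal axis gives the distance of the DHS centre from the 5′-most TSS in kb. Points are the 117 DHS, with an area that grows with the score and a colour for own promoter, promoter of another gene or distal, grey bars are gene bodies and thin lines the windows. The large intronic point at 62.7 kb in Nfkb1, the single large point of Rel and the large neighbour points of Nfkb2, Rela, Relb and Nfkbie stand out.

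The start sites themselves were examined next. The 10 genes have 37 distinct annotated start sites, of which 25 lay under a DHS, compared with 40.1% of 70018 such sites over all protein-coding genes and 55% over those with a promoter DHS. The 5′-most TSS was covered in 8 genes and at least 1 TSS in all 10, compared with 40.6% and 46.6% of all protein-coding genes. Of the 12747 genes with a promoter DHS, 9063 had the 5′-most TSS covered and 10414 at least 1 TSS. The 5′-most TSS was not covered in 2 of the 10 genes, Nfkb1 and Bcl3. At Nfkb1 the TSS lay in a gap of 512 bp between DHS (chr3:135354091-135354602), and at Bcl3 in a gap of 221 bp (chr7:20407926-20408146). Such a gap, with a DHS within 1 kb on both sides, was present at 10.3% of genes with a promoter DHS. The gap sequences had a GC content of 79.1% and 76.92% and observed to expected CpG ratios of 1.058 and 0.9644. Whether reads are underrepresented in such sequence was not tested. Over the 1000 bp around the 5′-most TSS, 8 genes were CpG-rich (GC content of at least 55% and a CpG ratio of at least 0.6), with GC contents from 57.1% at Tnfaip3 to 69.8% at Nfkb1. Nfkbie (54.9%) and Nfkbiz (51.9%) were not. Of all protein-coding genes 38.5% were CpG-rich, and of those with a promoter DHS 57.8%.

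**Figure D3:**
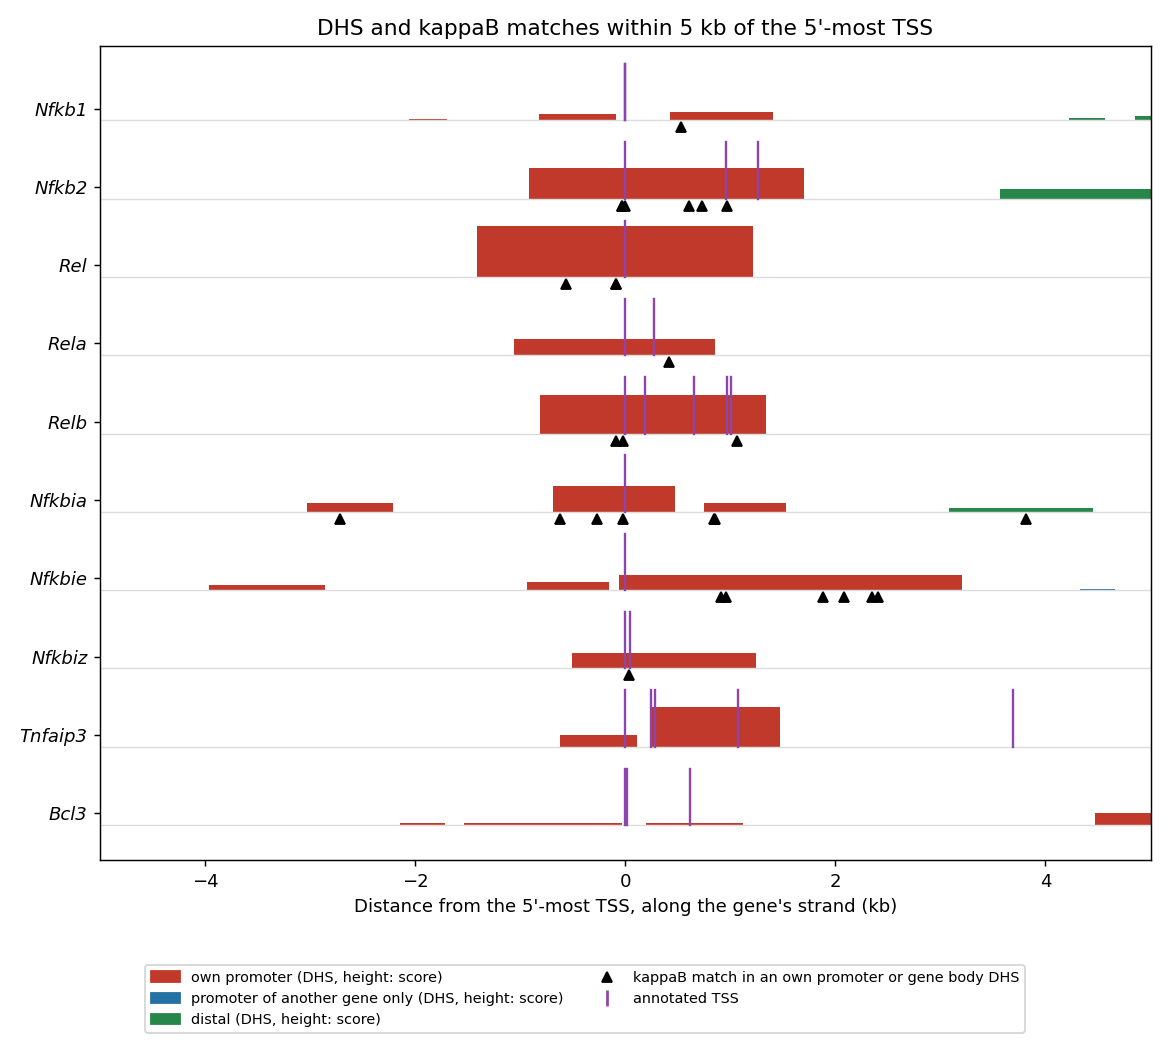
Each row shows 5 kb on either side of the 5′-most TSS along the strand of the gene. Boxes are DHS with a height proportional to the score and coloured by class, purple lines are annotated start sites and triangles are kappaB matches in DHS of the promoter or the gene body. The start sites at 0 kb of Nfkb1 and Bcl3 lie between boxes, and matches lie within 100 bp upstream of a start site in Nfkb2, Rel, Relb, Nfkbia and Nfkbiz.

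Matches to the kappaB consensus were more frequent in the promoter DHS of these genes than in those of the list as a whole. At least 1 match was present at 9 of 10 genes, Tnfaip3 being the exception, compared with 29.2% of genes with a promoter DHS. At least 2 were present at 6 genes (Nfkb2, Rel, Relb, Nfkbia, Nfkbie and Nfkbiz), compared with 9.07%. Of the 27 promoter DHS, 12 held a match (44.44%, Wilson interval 27.59 to 62.69), against 16.69% of all 22529 promoter DHS. In total there were 30 matches in 35341 bp, or 0.849 per kb (Poisson interval 0.573 to 1.21), against 0.197 (0.192 to 0.203) in all promoter DHS. Over all bases the GC content was 53.84% in these promoter DHS and 53.57% in promoter DHS in general, while the median CpG ratio per DHS was lower, at 0.3715 against 0.5117. Of the 30 matches, 22 lay in the 10 promoter DHS with a GC content of at least 55%, or 1.2 per kb (0.752 to 1.82), against 0.254 per kb in such DHS of the list. The 17 others held 8, or 0.47 per kb (0.203 to 0.926), against 0.158. With overlapping matches counted once the densities were 0.764 and 0.181 per kb. Matches of 1 gene are not independent of each other, and leaving out 1 gene at a time gave densities from 0.734 (without Nfkb2) to 0.988 (without Bcl3).

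**Figure D4:**
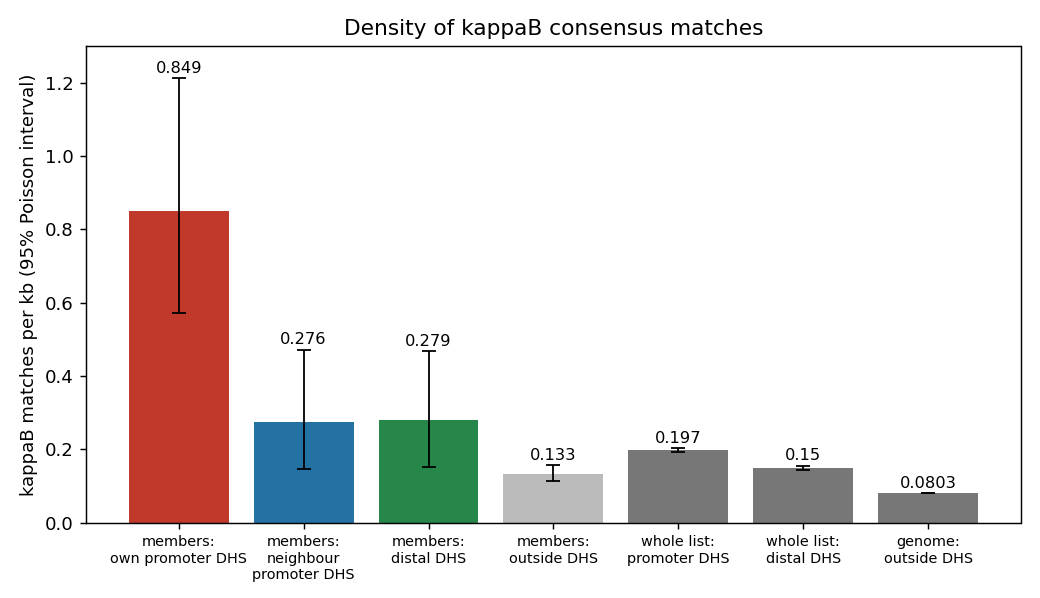
Bars give kappaB matches per kb and error bars the 95% exact Poisson interval, which covers counting error alone. The promoter DHS of the 10 genes (0.849 per kb) stand above their neighbour promoter DHS (0.276), their distal DHS (0.279), the rest of their windows (0.133) and all promoter DHS of the list (0.197).

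The matches differed in number and place between the genes. Nfkb2 and Nfkbia each had 6 in promoter DHS, or 2.29 and 2.17 per kb, the highest densities. In the Nfkb2 sequence shown above 3 matches had their centres within 34 bp of the TSS, at 34, 33 and 6 bp upstream. The remaining 3 were inside the gene, and one of these, 15 bp downstream of the next coding start site, was in an exon. In Nfkbia the match nearest to the TSS was centred 25 bp upstream, others 269 and 625 bp upstream, and 2 overlapping ones 849 and 850 bp downstream in the DHS inside the gene. The upstream DHS of Nfkbia also held 1, centred 2713 bp from the TSS. Relb had matches 20 and 93 bp upstream and one inside the gene, and Rel an overlapping pair 86 and 87 bp upstream and one 566 bp upstream.

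Nfkbie also had 6 matches, but its layout was another. All 6 lay in introns between 913 and 2408 bp downstream of the TSS, within the widest promoter DHS. In Nfkbiz the match in the exon was centred 11 bp upstream of a start site, and the internal promoter DHS held 2 more, 436 and 1436 bp downstream of the start of Nfkbiz-004. Rela, Nfkb1 and Bcl3 had 1 each, in introns, and that of Bcl3 was in the internal DHS. In 5 genes (Nfkb2, Rel, Relb, Nfkbia and Nfkbiz) a match lay within 100 bp upstream of a TSS, as in 2.71% of genes with a promoter DHS. Tnfaip3 had none in its promoter DHS, and also none when any base was allowed at the sixth position of the consensus. The stretch between its promoter DHS with scores of 327.8 and 92.43 lies directly upstream of the start site of the coding transcript Tnfaip3-001. It was under no DHS, so that a match there would not be counted.

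Several of the words recurred between genes. All are matches to the same consensus, which limits their variety, and how often such words recur between other genes was not computed. GGGGAATTCC was present in Nfkb2, Relb and Nfkbie, and in 110 of all 47474 DHS. GGGAATTTCC was shared by Nfkbia and Nfkbiz, near a start site in both, and was in 117 DHS. GGGATTTCCC was shared by Rel and Bcl3 and was in 175 DHS. GGGGCTTTCC was present in the DHS at the TSS of Nfkb2 and in a distal DHS near the 3′ end of Nfkbiz, and in 221 DHS.

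A pair of other words was searched for comparison. The AP-1 word TGANTCA was in 10 of the 27 promoter DHS (37.04%, 21.53 to 55.77), against 20.36% of all promoter DHS, and lay in promoter DHS of Nfkb1, Nfkb2, Rel, Rela, Relb, Nfkbie, Nfkbiz and Bcl3. The Ets-IRF composite word, GGAA and GAAA with 2 bases of any kind between them, was in 2 of 27 (7.41%, 2.06 to 23.37), at Nfkb1 and Tnfaip3, against 10.21%. The interval of the AP-1 word lay just above the share of all promoter DHS, and that of the Ets-IRF word included it.

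The DHS away from the promoters of the 10 genes were considered next. Of the 117 DHS, 27 were promoter DHS of the genes themselves (23.08%), 37 lay at promoters of other genes alone (31.62%) and 53 were distal (45.3%, 36.57 to 54.33), compared with 52.5% distal in the whole list. The windows held from 6 (Rela) to 19 (Nfkb1) DHS with a median of 11.5, against a median of 5 over all protein-coding genes, and a window also grows with the length of the gene. The window edge cut through 2 DHS, with scores of 28.87 at Nfkb2 and 50.24 at Bcl3, which were kept. A further 14 DHS lay within 5 kb outside an edge and were left out, 6 of them at Rel (18.36 to 49.71), and the highest with 226.9 at Bcl3 and 111.4 at Nfkbiz. The windows of Nfkbia, Nfkbiz and Tnfaip3 held no DHS at promoters of other genes, while that of Nfkbie held 10, of Nfkb2 8 and of Relb 7. The distal DHS divided into 24 intergenic, 20 intronic and 9 exonic ones. Their median score was 25.45, against 24.33 for all distal DHS.

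A distal score of at least 100 was reached by 4 of 53, compared with 5.02% of all distal DHS, and each was in another window. That of Relb was the highest, with 177.5 at chr7:20174430-20175840, 39.7 kb downstream of the TSS over an exon of Clasrp. That of Nfkb1 was the intronic DHS with 158.7 described above. Rela had 126.3 at chr19:5648282-5649712, intergenic and 11.5 kb downstream, and Bcl3 had 112.3 at chr7:20428602-20430844, intergenic and 21.6 kb upstream. The DHS of Bcl3 held 2 kappaB matches and those of Relb and Rela 1 each. The highest distal DHS of Tnfaip3 (chr10:18781210-18783279) scored 83.98 and lay 46.8 kb upstream, and it carried 2 Ets-IRF words. That of Nfkbia (chr12:56599477-56600815) scored 73.08 and lay 6.5 kb upstream. Those of Nfkbiz (47.18, in an intron of Fam55c, 49.1 kb upstream), Nfkbie (44.13, in an exon of Aars2) and Rel (23.31, in an exon of Pus10) were lower. Which gene a distal DHS acts on is not given by its position.

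In 4 genes, Rel, Nfkbia, Nfkbiz and Tnfaip3, the highest DHS of the window was at the promoter of the gene itself, which holds for 45.4% of genes with a promoter DHS. At Nfkb1 and Bcl3 it was the distal DHS named above. In the others it lay at the promoter of a neighbour, with 275.4 at Cuedc2, Tmem180 and Mir146b for Nfkb2, 292.1 at Map3k11 and Pcnxl3 for Rela, 330.5 at Clptm1 for Relb, and 353.8 at Hsp90ab1 for Nfkbie. Mir146b is the gene of a microRNA of the miR-146 family, known for dampening NF-kappaB signalling through adaptors upstream of the kinases.

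Over all DHS of the windows, 35 of 117 held a kappaB match (29.91%, 22.36 to 38.74), compared with 13% of the whole list. Distal DHS held 14 matches, or 0.279 per kb (0.153 to 0.468), against 0.150 in all distal DHS. The density inside DHS was 3.26 times that in the rest of the windows (2.35 to 4.45; 57 matches in 131725 bp against 148 in 1113122 bp). Over chromosomes 1 to 19 and X the same ratio was 2.20 (2.15 to 2.25), so that the interval of the windows lay above it. Of the 57 matches inside DHS, 30 lay in promoter DHS of the genes themselves, which were described above. Neighbour promoter and distal DHS of the windows held 0.276 and 0.279 per kb, against 0.133 outside DHS. Without the own promoter DHS no ratio was computed, so that the higher value cannot be assigned to the other DHS. Tnfaip3 was again apart, with 0 matches in 7151 bp of DHS and 14 in the rest of its window.

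The other genes of the pathway, a list of 36 adaptors, kinases, ubiquitin enzymes and further inhibitors, were set beside the 10 genes. All 36 had a promoter DHS (100%, exact binomial interval 90.26 to 100), compared with 57% of all protein-coding genes, with top scores from 28.58 to 449.1 and a median of 136.1, compared with 101.2. The 5 highest were Nfkbid, a nuclear IkappaB protein, with 449.1, Tax1bp1, an adaptor of the Tnfaip3 protein, with 381.5, the receptor adaptors Traf1 and Traf5 with 358.1 and 328.1, and Sharpin, a subunit of the linear ubiquitin ligase, with 317.4. A kappaB match was present in promoter DHS of 20 of 36 (55.56%), against 29.2% of genes with a promoter DHS, at 0.410 matches per kb. Nfkbid had 5 matches, Tnip1, an inhibitor that binds the Tnfaip3 protein, had 4, and Tax1bp1 had 3. Per kb the list thus lay between the 10 genes (0.849) and all promoter DHS (0.197).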

How the data were processed

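Splenic B cells selected with B220 MicroBeads were digested with DNase I and sequenced as 1 DNaseI library beside 1 input library. The authors deposited 1 peak list for the DNaseI library, with start, end and a score for each peak. Per the submitters' processing notes, reads were handled with BWA 0.6.2 and SAMtools on mm9. Peak names are those of MACS. The version and settings of the caller for this library, its use of the input and the scale of the score are not given in the sources used here, and the input library was not analysed here. The genome sequence and the GENCODE M1 annotation were of NCBI build 37, which is mm9.

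Of 47542 peaks, 47474 on chromosomes 1 to 19 and X were used and 68 on other sequence were not. Positions are counted from 1. A DHS counted where it overlapped a window by at least 1 bp. Distances to a TSS are from the centre of the DHS or match, along the gene. Promoter DHS lay within 5 kb before or 2 kb after a TSS, an own promoter DHS taking precedence over that of a neighbour and all others being distal. Scripts in Python 3.11.15 with NumPy 2.4.6, SciPy 1.17.1 and matplotlib 3.10.9 were tested on simulated data. Intervals (exact binomial for gene lists, Wilson for shares of DHS, exact Poisson for densities and their ratio) are at the 95% level, and no test was made with 1 library. The genes, lists and comparisons were chosen with earlier results of these data known. Named are all 10 genes, for each the promoter and distal DHS with the highest score and those over the gene body, neighbours where these hold the highest DHS of a window, and the 5 pathway genes with the highest promoter score. The AP-1 and Ets-IRF words, the counts of matches within 100 bp of a TSS, of gaps at a TSS and of distal DHS with a score of at least 100, DHS at the window edges, the division of promoter DHS by GC content, the matches of Nfkbid, Tnip1 and Tax1bp1, and the setting with the 5′-most TSS alone were chosen after values were seen. Alternatives covered the score threshold, the windows, the overlap rule, the annotation, merging, and the motif rule. Some marker genes are not reported here.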

Additional observations from a re-analysis of the deposited data

How the results depend on the processing

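No paired analysis was possible because there is 1 library and no replicate. All 10 genes kept a promoter DHS under every setting tried. The median percentile of their top promoter score among all DHS was 97.16 (83.9 to 99.3), where the median gene with a promoter DHS stood at 84.78, and 89.33 among such genes. Among all DHS it was 96.54 by width and 94.13 with the 5′-most TSS alone, the last chosen after seeing the data. The number of DHS follows the window: 117 became 35 for gene bodies, 57 with 10 kb and 190 with 100 kb on either side, and 66 at or above the median score. The distal share of 45.3% became 34.85% at or above the median score (whole list 37.86%) and 59.83% with promoters of 1 kb on each side (63.93%). The share of DHS with a kappaB match, 29.91%, became 45.45% at or above the median score (18.39%), 9.40% in the central 300 bp (4.59%) and 40% over gene bodies, and was 35.04% with the consensus allowing any base at the sixth position (20.85%). The ratio of densities inside to outside DHS of 3.26 became 5.79 over gene bodies and 2.47 (1.86 to 3.23) with the looser consensus, for which the ratio over the genome was not computed. Of 33 alternative values 23 stayed near the reported one, 10 moved and 0 reversed. Near meant inside the interval of the reported value, or within a factor of 1.5 for the number of DHS. For the share of the 10 genes with a promoter DHS that interval was wide, from 69.15 to 100. Shares, percentiles and counts have no direction, so that only the ratio of densities could reverse. The pathway list lost Tab2 at the score threshold, Birc2 with 1 kb promoters, Ikbke with protein-coding start sites, and Tnip1 and Ikbke with the 5′-most TSS. Unknown depth limits every statement on a missing DHS.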
